A study of Mus musculus with 2 samples.

Results

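The genes described here encode the subunits of the proteasome, the protease that degrades ubiquitin-tagged proteins, together with its activators and the chaperones that help build it. They were chosen by name. All protein-coding genes whose symbol begins with Psma, Psmb, Psmc, Psmd or Psme and continues with a digit were taken, which gave 45 of 21474 protein-coding genes. The tissue was neural tube, taken from B6NCrl embryos of both sexes, aged 15.5 days and described as healthy, with no treatment or altered allele in the labels. Both libraries belong to 1 group, in which the tube of 78 embryos was pooled for replicate 1 and that of 62 for replicate 2. No contrast between conditions exists, so each value below is a description, and an exact sign test over 2 libraries cannot give a p below 0.5. Levels are in TPM (transcript abundance corrected for length and scaled to a common total), which allows genes to be compared with each other. Where both libraries are given, replicate 1 comes first. A ± is the SD over the libraries (n = 2).

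The 20S core of the proteasome is a barrel of outer α rings, encoded by Psma genes, and inner β rings, encoded by Psmb genes, and it cuts proteins at the sites called β1, β2 and β5. The 19S regulatory particle caps the core. Its base holds the Psmc ATPases, which unfold the substrate, and its base and lid hold the Psmd subunits, which bind ubiquitin chains and remove them. In immune cells, and elsewhere under interferon, Psmb9, Psmb10 and Psmb8 replace the constitutive β1, β2 and β5 subunits to form the immunoproteasome, whose peptides feed major histocompatibility complex (MHC) class I. The epithelium of the thymic cortex uses its own β5 form, Psmb11, in the thymoproteasome that supports the selection of CD8 T cells. Neural tissue is known to hold mainly the constitutive enzyme.

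The labelled tissue was checked first. All 5 neuronal markers were detected in both libraries, from Elavl3 at 42.0 and 61.9 TPM to Tubb3 at 1059.7 and 1275 TPM. Replicate 1 also held transcripts of the thymus. All 10 markers of thymic epithelium were higher in replicate 1 by 1 or more on the log2 scale, with a summed level of 625 and 20.0 TPM. So were 8 of 11 thymocyte markers, with a sum of 302 and 9.84 TPM, where 4.09% of all protein-coding genes were higher by that much. Of the epithelial sum, Krt8 held 266 and 1.97 TPM and Epcam 60.0 and 2.37 TPM. Neither gene is particular to the thymus, so that sum is no measure of thymic RNA alone. Foxn1, the master regulator of thymic epithelium, and Cd3g, a chain of the T cell receptor complex, had no count in replicate 2, where 3 counts would be 0.0364 TPM for Foxn1. The libraries therefore stand apart in their content of thymic RNA, and each result on the immune and thymic forms is given for each library alone. In bulk RNA, more cells of a type and more RNA per cell cannot be told apart.

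Regulatory sequence is shown for the genes whose levels are compared below, taken from RefSeq promoter windows on build GRCm38.p6 that run from 250 bases before the start of transcription to 50 after it. Such a window was matched for 38 of the 45 members. The constitutive catalytic genes Psmb6 and Psmb5 each hold the core of an antioxidant response element, the letters TGACNNNGC bound by factors such as Nfe2l1 that raise proteasome genes. It begins 9 bases before the start of Psmb6 and 47 before that of Psmb5. The stretches that lie before the start and outside annotated exons are printed 5′ to 3′ on the strand of the gene, for Psmb6 chr11:70525107-70525356 on the plus strand, for Psmb5 chr14:54618023-54618245 on the minus strand and for the immune gene Psmb10 chr8:105938445-105938642 on the minus strand. Capitals mark the TGACNNNGC match in Psmb6 and Psmb5 and an E-box, CACGTG, in Psmb10.
Psmb6: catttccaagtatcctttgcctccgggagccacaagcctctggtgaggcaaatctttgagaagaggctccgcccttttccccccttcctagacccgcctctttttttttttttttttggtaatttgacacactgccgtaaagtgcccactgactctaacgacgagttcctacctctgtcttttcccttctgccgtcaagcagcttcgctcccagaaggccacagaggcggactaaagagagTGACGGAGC
Psmb5: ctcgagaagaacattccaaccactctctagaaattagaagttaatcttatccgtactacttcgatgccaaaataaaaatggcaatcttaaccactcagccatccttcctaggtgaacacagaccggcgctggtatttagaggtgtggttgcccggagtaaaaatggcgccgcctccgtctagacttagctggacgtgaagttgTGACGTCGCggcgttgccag
Psmb10: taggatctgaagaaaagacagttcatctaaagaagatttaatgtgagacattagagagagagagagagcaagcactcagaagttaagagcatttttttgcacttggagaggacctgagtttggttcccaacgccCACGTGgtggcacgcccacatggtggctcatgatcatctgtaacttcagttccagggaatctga

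Shorter stretches show matches in the MHC genes Psmb8 and Psmb9 and in the thymic gene Psmb11. The Psmb8 stretch, chr17:34198090-34198114 on the plus strand, holds a gamma-activated site, TTCNNNGAA, a motif of interferon-responsive promoters. Psmb9 and the peptide transporter gene Tap1 start close together and run in opposite directions, so their windows share the CCAAT box at chr17:34187326-34187346, read on the minus strand for Psmb9 and on the plus strand for Tap1. The Psmb11 stretch, chr14:54625147-54625167 on the plus strand, holds a CCAAT box as well. The GENCODE annotation places the starts of Psmb8, Psmb9 and Psmb11 further upstream than RefSeq does, so their stretches lie inside its gene spans, that of Psmb8 in the first exon of the transcript Psmb8-201. Capitals mark those letters.
Psmb8: ctccgctgTTCCCAGAAgatgcccc
Psmb9: agccgctgATTGGaaagccga
Tap1: tcggctttCCAATcagcggct
Psmb11: ctcaccagCCAATtccaaagc

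A set of 11 motifs was counted on both strands in these windows. Among 25 constitutive subunits with a window, 10 (40%) held the ETS letters CCGGAAG, where this share was 9.93% over all 27025 genes with a window. The nuclear respiratory factor letters GCGCA and GCGC with N between them stood in 6 (24%) against 5.19%, and the GC box GGGCGG in 15 (60%) against 38.2%. For the response element core TGACNNNGC, the shares were 4 subunits (16%) and 13.99% of genes. The CCAAT box stood in 10 (40%) against 41.1%, and TATAAA in 3 (12%) against 15.7%. The interferon-stimulated response element, GAAA on either side of NN, stood in 2 constitutive windows (8%) against 3.99%, in those of the activator gene Psme1 and the chaperone gene Psmd9, and in none of the windows of Psmb8, Psmb9, Psmb10 and Psmb11. TTCNNNGAA, the NF-kB letters GGGNNTTCC and CACGTG each stood in 1 constitutive window (4%), against 9.55%, 6.58% and 8.09% of genes, and the cyclic AMP response element TGACGTCA in 0 against 2.03%. Matches of different motifs may overlap, base composition was not matched, and a match is no evidence of binding. Of the ETS matches, those of the base subunits Psmc1 (chr12:100110166-100110188, plus strand) and Psmd2 (chr16:20651618-20651640, plus strand) and of the lid subunits Psmd12 (chr11:107479503-107479525, plus strand) and Psmd13 (chr7:140882380-140882402, plus strand) are printed as examples near the start, with the match in capitals.
Psmc1: tggatgcaCTTCCGGcggtggcg
Psmd2: gcagggcgCTTCCGGtctggagg
Psmd12: gcgggcgaCTTCCGGtgcgagtg
Psmd13: ccgcggtgCCGGAAGtgagcgag

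Nearly all proteasome genes were expressed. 43 of the 45 members reached 1 TPM in both libraries (95.6%), where 63.4% of all protein-coding genes did. The exceptions were Psmb11 and Psma8, the α subunit of the testis proteasome. Psma8 stood at 0.79 and 0.17 TPM, from 28 and 7 expected counts, with exact Poisson intervals of 18.6 to 40.5 and 2.81 to 14.4 counts that cover counting error only. None of 5 germ cell markers reached 1 TPM in both libraries. Together the members took 0.909% and 0.880% of all TPM. The constitutive 26S enzyme, that is the core with its regulatory particle, is covered by 31 of the members, and their median was 233 and 227 TPM (mean 229.7 ± 4.03), against 18.6 and 17.4 TPM for protein-coding genes with a mean of 1 TPM or more.

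**Figure D1:**
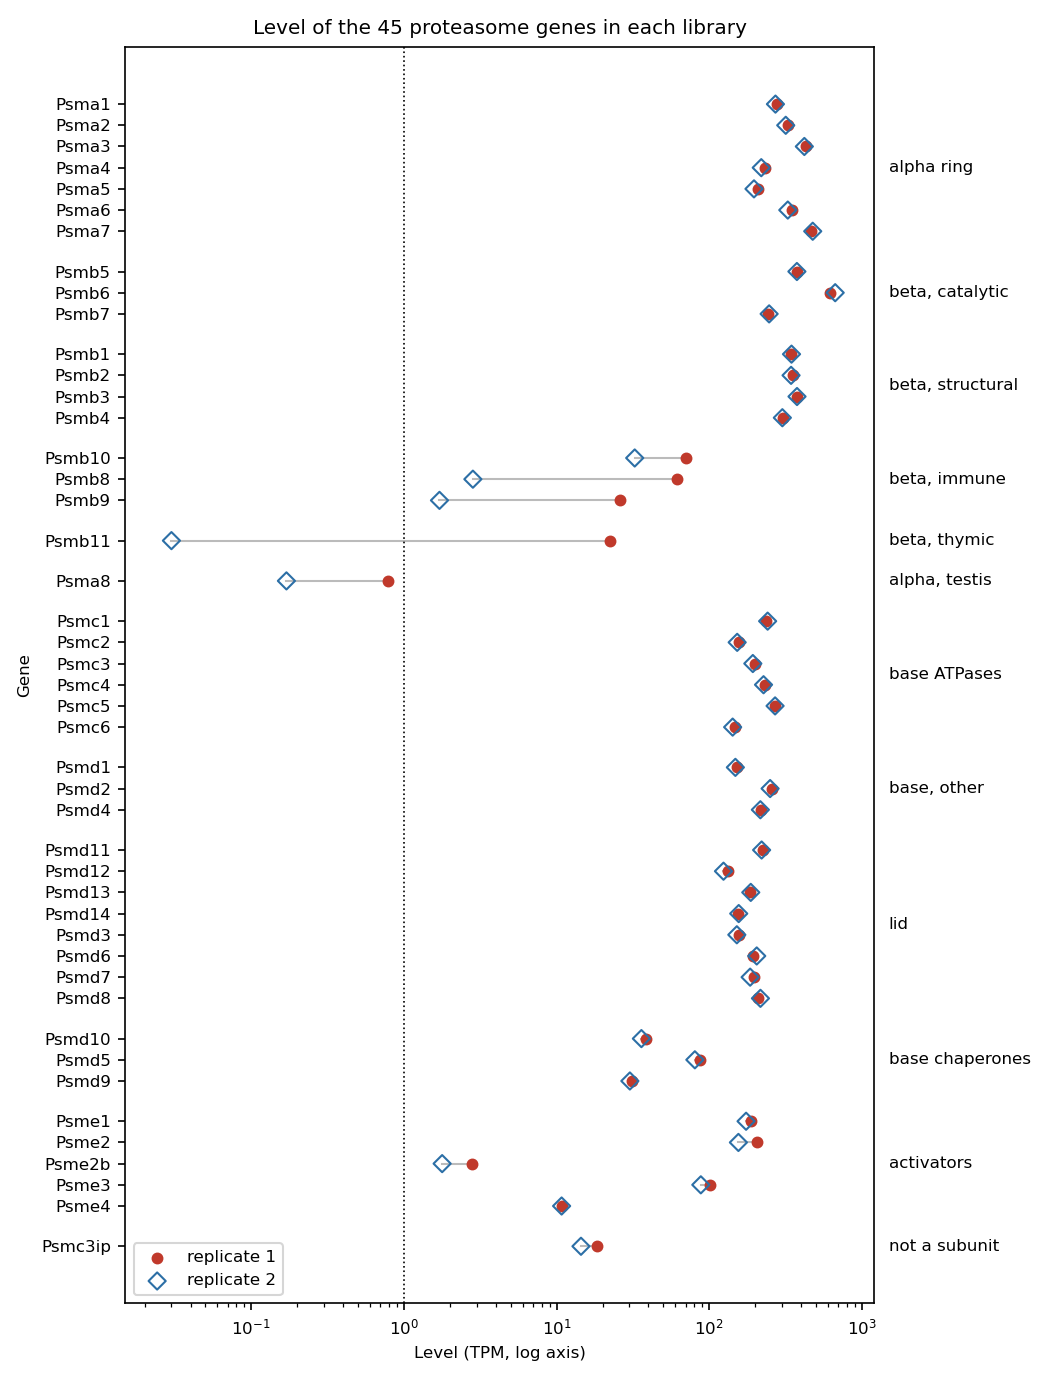
Level of each of the 45 genes in TPM (log axis), filled circles for replicate 1 and open diamonds for replicate 2, joined by a line and grouped by role, with the dotted line at 1 TPM. The circles and diamonds of the constitutive subunits lie on each other, and those of Psmb8, Psmb9, Psmb10 and Psmb11 are apart. Those of Psma8, under 1 TPM in both libraries, are apart as well.

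The α ring genes, whose products form the gate of the barrel, lay between 196 and 476 TPM in replicate 2 and between 209 and 464 TPM in replicate 1. Psma7 (the α4 subunit, chromosome 2, 180036374 to 180042433) led at 464 and 476 TPM, followed by Psma3 (α7) at 428 and 419.8 TPM. Psma6 (α1) stood at 347 and 327 TPM, Psma2 (α2) at 329.8 and 317 TPM and Psma1 (α6) at 280.0 and 272 TPM. Psma4 (α3) at 232 and 219 TPM and Psma5 (α5) at 209 and 196 TPM were lowest. The order of the α genes was the same in both libraries. Psma8, whose product takes the place of Psma7 in the testis, was 587-fold and 2802-fold below Psma7.

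Of the constitutive β genes, Psmb6 was the highest member of the whole set. Psmb6 (β1, which cuts after acidic residues; chromosome 11, 70525367 to 70527858) stood at 622 and 668 TPM. Psmb5 (β5, which cuts after hydrophobic residues; chromosome 14, 54614119 to 54618022) stood at 375.1 and 375.3 TPM, and Psmb7 (β2, which cuts after basic residues; chromosome 2, 38588036 to 38644087) at 242 and 247 TPM. Although each core holds equal numbers of these subunits, the Psmb6 transcript exceeded that of Psmb7 by 2.57-fold and 2.71-fold. Among the structural β genes, Psmb3 (β3) stood at 376 and 376 TPM, Psmb2 (β4) at 356 and 344 TPM, Psmb1 (β6) at 343 and 346 TPM and Psmb4 (β7) at 304 and 301 TPM. The gaps between Psmb6, Psmb5 and Psmb7 were wider than the difference between the libraries for any of them. Some members overlap other genes, such as Psma2 with AW209491 on the same strand and Psmb7 with Nek6 on the opposite strand, and reads from shared bases may belong to either gene.

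Regulatory particle genes were lower in TPM than most core genes. The median of 17 regulatory genes was 197 and 193 TPM, and that of 14 core genes 345 and 335 TPM, while the ranges overlapped. This gap is specific to TPM, which divides by length. The median expected counts of these groups, not divided by length, lay close together in both libraries. The ATPase genes ran from Psmc6 (Rpt4) at 146 and 142 TPM and Psmc2 (Rpt1) at 156 and 152 TPM to Psmc5 (Rpt6) at 269.7 and 270.0 TPM, with Psmc3 (Rpt5) at 198 and 193 TPM. Psmc1 (Rpt2) and Psmc4 (Rpt3) lay close together, at 235 and 241 TPM and at 233 and 227 TPM. In the rest of the base, the scaffold gene Psmd2 (Rpn1) stood at 258 and 250.5 TPM, the ubiquitin receptor gene Psmd4 (Rpn10) at 218 and 216 TPM and Psmd1 (Rpn2) at 152 and 148 TPM.

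The 8 lid genes had a median of 189 and 186 TPM. Psmd14 (Rpn11), the deubiquitinase that strips ubiquitin chains from the substrate, stood at 155 and 156 TPM. Psmd11 (Rpn6), a clamp between lid and core, was highest at 226 and 220.4 TPM and Psmd12 (Rpn5) lowest at 133 and 124 TPM. The other lid genes were Psmd8 (Rpn12) at 209.9 and 216 TPM, Psmd6 (Rpn7) at 193 and 205 TPM, Psmd7 (Rpn8, the partner of Psmd14) at 197 and 185 TPM, Psmd13 (Rpn9) at 186 and 187 TPM and Psmd3 (Rpn3) at 157 and 152 TPM. Genes of the chaperones that assemble the base were lower than any constitutive subunit gene in both libraries, with Psmd5 at 87.5 and 80.5 TPM, Psmd10 (gankyrin) at 38.3 and 35.9 TPM and Psmd9 at 31.4 and 30.2 TPM. Chaperones leave the enzyme once it is built.

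Among the 31 constitutive subunits, levels were slightly less spread than those of other genes in the same range of levels. The highest exceeded the lowest by 4.69-fold in replicate 1 and 5.39-fold in replicate 2. The SD of log2(TPM + 1) over the subunits was 0.54 and 0.56. Over the 1081 other protein-coding genes in their range of levels, 128 to 645 TPM, it was 0.63 and 0.66. That range was set by the lowest and highest mean of the subunits themselves, so it limits this SD as well. Over protein-coding genes with a mean of 1 TPM or more, which span a far wider range, it was 1.89 and 2.03. From CPM, counts scaled by library size and not divided by length, the SD over the subunits was 0.40 (mean of the libraries). The log2 difference of the subunits, replicate 1 over replicate 2 of TPM + 1, ran from -0.10 (Psmb6) to 0.10 (Psmd12), and the median of its size was 0.0392. The same median was 0.138 over the 1081 other genes in their range of levels. Which library was higher depended on the scaling: 20 subunits were higher in replicate 1 from TPM, 14 with TMM scaling and 12 with DESeq2 size factors.

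The immune and thymic forms were the members that stood apart between the libraries on the log2(TPM + 1) scale. A difference of 1 or more on that scale, which is 2-fold in TPM + 1, was found for 4 of 45 members (8.89%). They were Psmb8, Psmb9, Psmb10 and Psmb11, all higher in replicate 1, against the 4.09% of all protein-coding genes. In the other direction there was 0, against 0.121% of protein-coding genes. Among protein-coding genes with a mean of 1 TPM or more, the shares were 5.56% and 0.154%, and the same 4 members were apart, Psmb11 reaching that mean through replicate 1 alone. The other 41 members lay between -0.10 and 0.61, the latter being Psma8 at levels under 1 TPM. Without the added 1 TPM, Psma8 differed by 4.65-fold. With a pseudocount of 0.1 TPM, or from counts scaled by DESeq2 size factors, Psma8 passed that difference too. With a single library on each side, these differences have no replicate check.

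**Figure D2:**
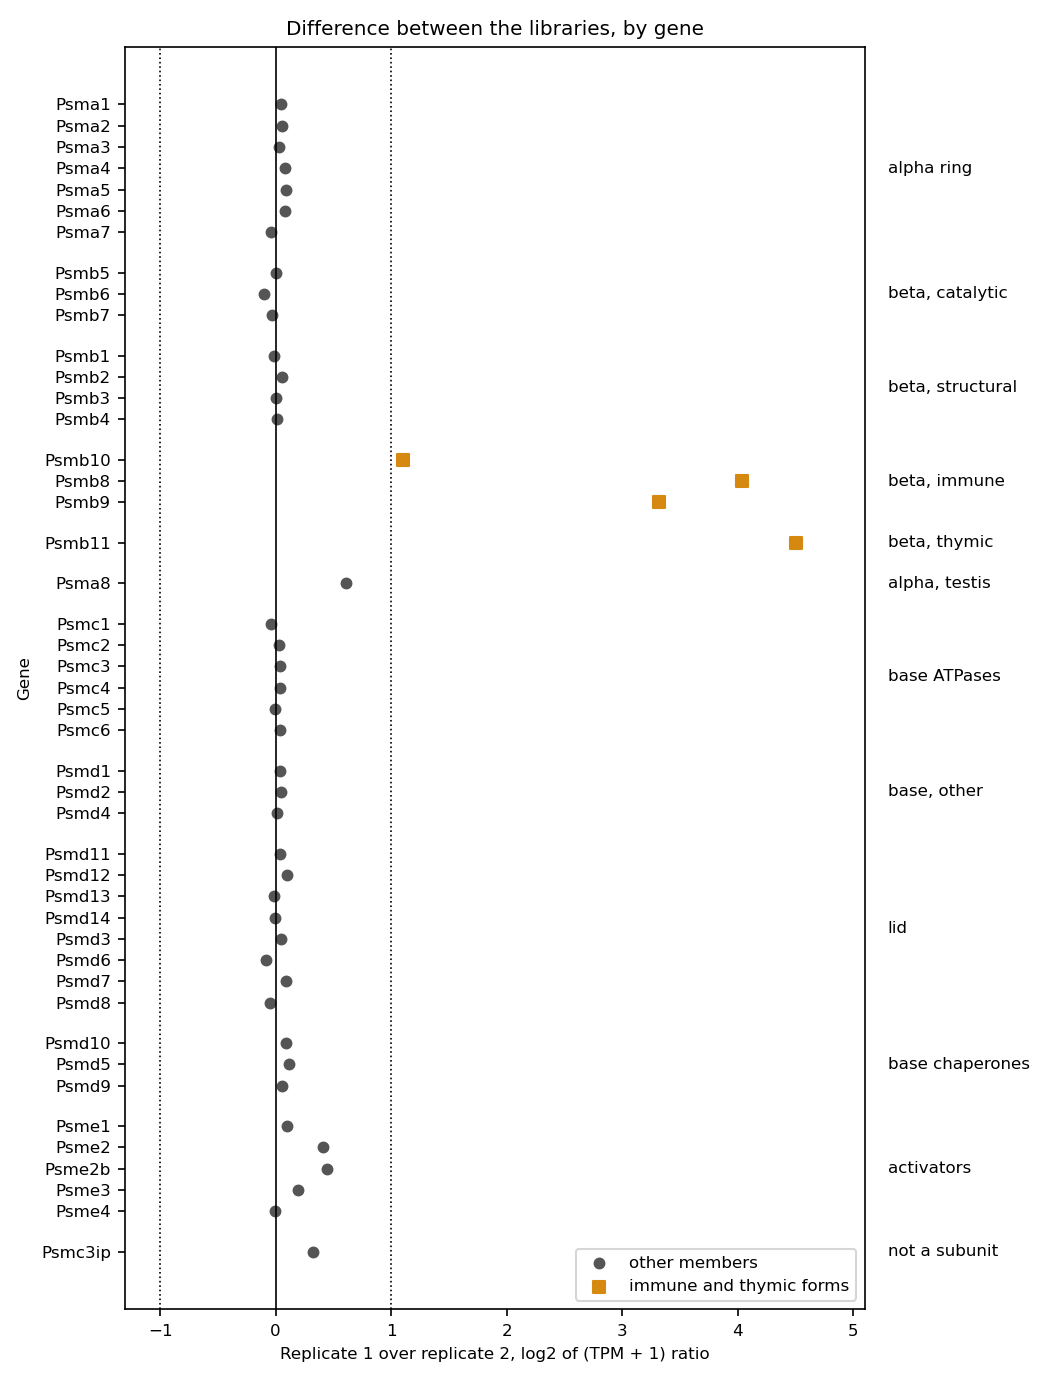
Difference between the libraries for each of the 45 genes, as log2 of the ratio of TPM + 1 in replicate 1 to that in replicate 2, with dotted lines at a difference of 1 in either direction. The squares of Psmb8, Psmb9, Psmb10 and Psmb11 lie between 1.10 and 4.50, and every other gene lies below 1.

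Psmb11 (β5t; ENSMUSG00000072423; chromosome 14, 54621433 to 54629556), the thymic form, stood at 22.3 and 0.03 TPM. These levels rest on 2056 expected counts in replicate 1 and 3 in replicate 2, whose exact Poisson interval is 0.619 to 8.77 counts. Per gene count of the library, the ratio was 817-fold, with an exact 95% interval of 279 to 3966 for counting error only. In replicate 2 the gene was at the limit of detection, taken as 3 counts. Its neighbour Psmb5 lies 3410 bases away on the opposite strand and kept nearly the same level in both libraries, while the log2 difference of Psmb11 was 4.50. That difference is of TPM + 1, and the added 1 TPM holds it well below the ratio of counts, whose log2 was 9.67.

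Psmb8 (β5i; ENSMUSG00000024338; chromosome 17, 34197721 to 34201454), the immune form of β5, stood at 61.9 and 2.83 TPM, a log2 difference of 4.04. From counts per library total, the log2 ratio was 4.29, with an exact 95% interval of 3.97 to 4.63. Psmb9 (β1i; ENSMUSG00000096727; chromosome 17, 34181987 to 34187764), the immune form of β1, stood at 26.1 and 1.71 TPM, a difference of 3.32, with a count ratio of 4.05 (3.64 to 4.49). Both lie in the MHC, with Tap1 between them and Tap2 beyond Psmb8. Psmb9 and Tap1 share 212 bases on opposite strands, and no source used here says whether counts kept strand, so reads from that overlap may belong to either gene.

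Psmb10 (β2i; ENSMUSG00000031897; chromosome 8, 105935735 to 105938444), the immune form of β2, differed least of the immune genes between the libraries. It stood at 70.8 and 32.5 TPM, a log2 difference of 1.10, with a count ratio of 1.12 (1.01 to 1.23). In replicate 2 it exceeded Psmb8 by 11.5-fold and Psmb9 by 19.0-fold, and in replicate 1 by 1.14-fold and 2.71-fold. The library with little thymic RNA held Psmb10 at a level well above that of its immune partners. Psmb10 lies outside the MHC, on chromosome 8, inside the span of an antisense gene, Gm16156, that stood at 0.5 and 0.44 TPM.

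Set against the constitutive subunit of the same active site, each immune or thymic form was lower in both libraries. At β1, Psmb9 held 4.02% of the summed TPM of Psmb6 and Psmb9 in replicate 1 and 0.255% in replicate 2. At β2, Psmb10 held 22.6% and 11.6% of the sum with Psmb7. At β5, Psmb8 held 13.5% and 0.748% and Psmb11 4.86% and 0.00793% of the sum with Psmb5. In replicate 2 the site with the largest immune share was β2, and the shares at β1 and β5 were under 1%. The log2 ratio of form to counterpart (TPM + 1) was -4.52 and -7.95 for Psmb9 over Psmb6 (mean -6.24 ± 2.42) and -1.76 and -2.89 for Psmb10 over Psmb7 (-2.32 ± 0.80). For Psmb8 over Psmb5 it was -2.58 and -6.62 (-4.60 ± 2.86), and for Psmb11 over Psmb5 -4.01 and -8.51 (-6.26 ± 3.18). With Psmb11 at 0.03 TPM in replicate 2, the -8.51, and so the mean and SD, depend on the added 1 TPM and understate the gap. Without the added value, Psmb5 exceeded Psmb11 by 12509-fold in replicate 2, and with a pseudocount of 0.1 TPM the mean was -7.78. All 4 ratios were below 0 in both libraries, and each differed between them by more than 1. Shares of transcripts are not shares of assembled enzyme.

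**Figure D3:**
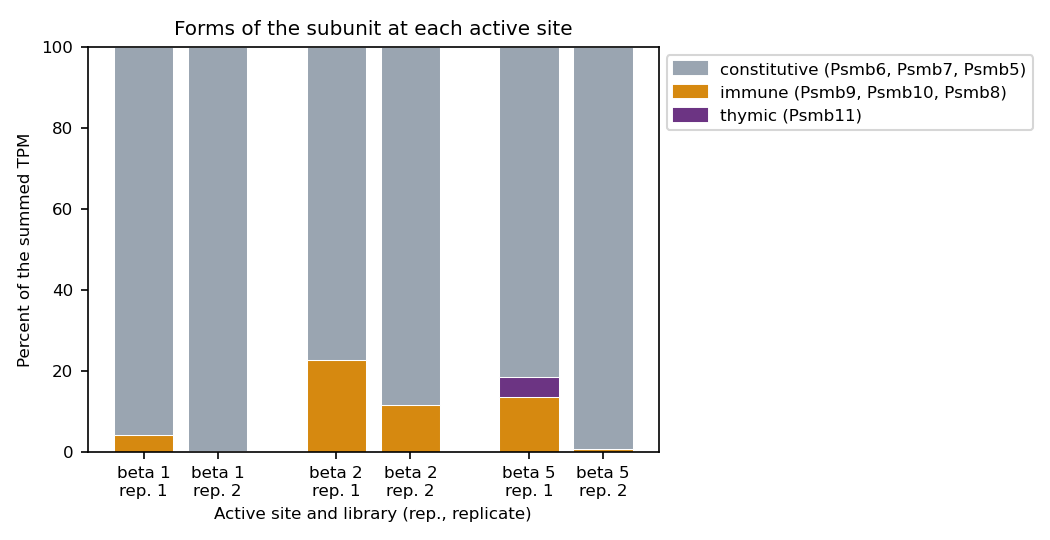
Percent of the summed TPM at each active site (β1, β2, β5) held by the constitutive (grey), immune (orange) and thymic (purple) form, 1 bar per library, on an axis from 0 to 100. Replicate 1 shows an immune or thymic share at every site, while in replicate 2 the β2 share of 11.6% is the only one that exceeds 1%.

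Activators open the core in place of the regulatory particle. Psme1 (PA28α) and Psme2 (PA28β), which interferon raises and which form a ring together, stood at 187 and 174 TPM and at 206 and 155 TPM, with log2 differences of 0.10 and 0.41. Their ratio, Psme1 over Psme2, was 0.906 and 1.12. These levels lay within the range of the constitutive subunits, unlike those of Psmb8, Psmb9 and Psmb10. Psme3 (PA28γ), the nuclear activator, stood at 101 and 88.1 TPM, and Psme4 (PA200) at 10.8 and 10.8 TPM. Psme2b, a copy of Psme2 on chromosome 11, stood at 2.78 and 1.78 TPM from 45.6 and 34.8 expected counts, and reads may be split between it and Psme2. Psmc3ip met the naming rule but encodes no subunit. It encodes a recombination factor named for its binding to Psmc3 and stood at 18.4 and 14.5 TPM.

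Genes that work with the proteasome, from lists that the rule did not use, resembled the constitutive subunits between the libraries. None of 5 chaperones of core assembly differed by 1 or more. Pomp, which guides the β ring into place, stood at 347 and 355 TPM, Psmg4 at 79.3 and 71.2 TPM, Psmg1 at 61.3 and 59.0 TPM and Psmg3 at 59.5 and 62.8 TPM. Further subunits and an inhibitor outside the naming rule, Adrm1 (Rpn13), Sem1 and Psmf1 (PI31), stood at 167 and 161 TPM, 132 and 121 TPM and 47.2 and 49.0 TPM. Of 11 associated factors 0 differed by 1 or more, led by the deubiquitinase gene Usp14 at 152 and 154 TPM and the shuttle gene Ubqln1 at 111 and 116 TPM, with Ube3c at 22.4 and 24.1 TPM and Ecpas at 27.3 and 28.4 TPM lowest. Nfe2l1, the factor that restores proteasome genes when the enzyme is short, stood at 59.3 and 63.2 TPM, Mafg at 32.5 and 33.2 TPM, Ddi2 at 11.9 and 9.48 TPM and Mafk at 11.7 and 8.82 TPM. Nfe2l2, the oxidative stress factor, had the largest difference of the 6 regulators, 0.89, at 19.2 and 9.88 TPM.

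Genes of class I presentation and of the interferon response were in part higher in replicate 1, as the immune forms were. Of 10 class I genes, 5 were higher in replicate 1 by 1 or more and 0 lower, where 4.09% and 0.121% of all protein-coding genes were. The list had a median difference of 0.83, against 0.03 over protein-coding genes with a mean of 1 TPM or more. The higher genes were Tap2 (12.4 and 1.58 TPM), H2-K1 (58.5 and 13.2 TPM), Tap1 (9.92 and 2.9 TPM), the peptide trimmer Erap1 (8.54 and 2.64 TPM) and B2m (239 and 113 TPM), the light chain of class I. The folding factors Calr (658 and 598 TPM) and Pdia3 (384 and 326 TPM) were highest, H2-D1 stood at 162 and 118 TPM, and Nlrc5, the class I transactivator, was lowest at 0.37 and 0.56 TPM. Reads of H2-K1 and H2-D1 may be split, since class I genes are near copies.

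Of 11 interferon genes, 5 were higher in replicate 1 by 1 or more and 0 lower, against the same 4.09% and 0.121% of all protein-coding genes. The median difference of the list was 0.94. Among the higher genes were Irf1 (19.1 and 3.15 TPM), a factor that acts on immunoproteasome genes, and Irf7 (6.76 and 2.12 TPM), Isg15 (7.96 and 2.64 TPM) and Gbp2 (2.95 and 0.73 TPM). The receptor genes Ifngr2 (83.3 and 87.7 TPM) and Ifngr1 (40.1 and 20.5 TPM) were present in both libraries. Ifng, the ligand, had 2 counts and 1 count, 0.08 and 0.03 TPM, and Ifit1, the next lowest, stood at 1.68 and 0.51 TPM.

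Marker genes of cell types that could hold the immune forms were set beside them. Thymic epithelium and thymocyte markers moved with Psmb8, Psmb9, Psmb10 and Psmb11, with median differences of 3.43 and 3.35, from Prss16, a protease of cortical epithelium, at 136 and 0.07 TPM, Krt8 at 266 and 1.97 TPM and Ccl25 at 86.9 and 10.7 TPM to Cd3g at 93.0 and 0 TPM and Lck at 81.5 and 9.17 TPM. The other thymocyte markers were Cd3e (39.9 and 0.06 TPM), Cd3d (28.4 and 0.06 TPM), Ptcra (35.8 and 0.16 TPM), Rag2 (10.7 and 0.02 TPM), Rag1 (9.52 and 0.03 TPM), Cd8b1 (1.54 and 0.03 TPM), Cd4 (0.5 and 0.14 TPM), Cd8a (0.48 and 0 TPM) and Dntt (0.3 and 0.17 TPM). The last 3 were under 1 TPM in both libraries. Of 8 markers of microglia, the immune cells of nervous tissue, 0 differed by 1 or more, and their sum was 186 and 170.4 TPM. Their differences ran from -0.22 (Trem2) to 0.37 (Tyrobp, 41 and 31.5 TPM), and C1qb stood at 51.3 and 50.8 TPM. Endothelial markers summed to 174 and 147 TPM, with 0 of 6 apart. Their differences ran from -0.01 (Flt1) to 0.89 (Pecam1, 22.7 and 11.8 TPM). Neuronal markers summed to 3022 and 3546 TPM. The part of thymic RNA in the levels of the immune forms was not tested, and it cannot be told apart from other differences between the pools.

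**Figure D4:**
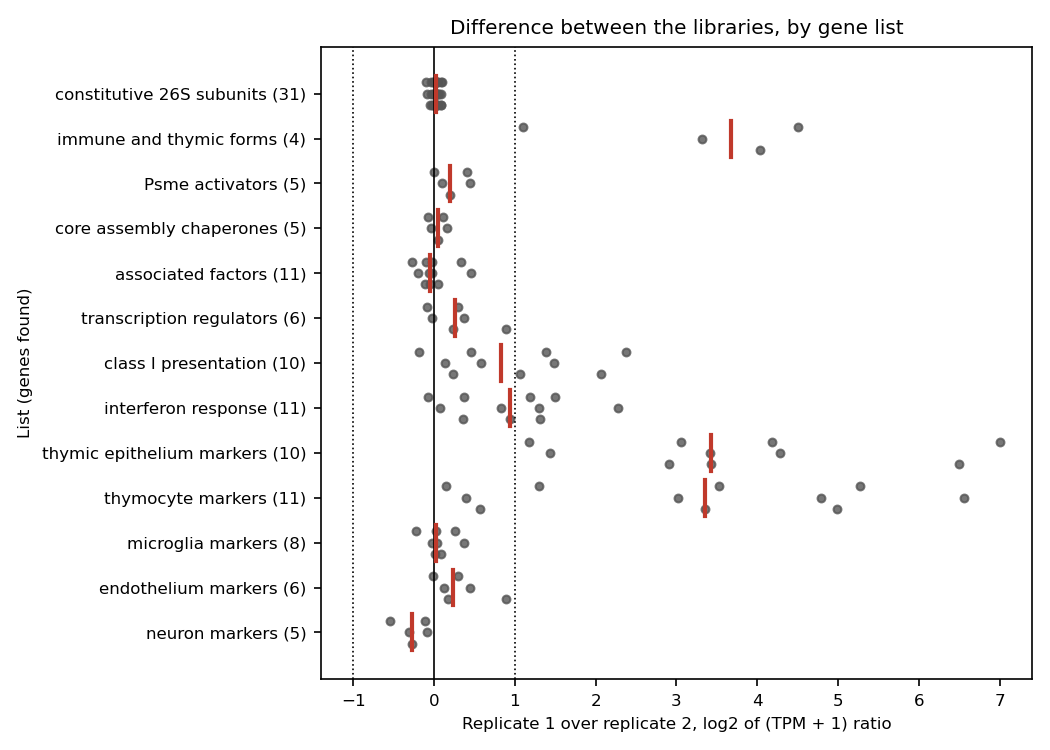
Difference between the libraries (log2 of the ratio of TPM + 1, replicate 1 over replicate 2) for the genes of each list, 1 point per gene, with the median of the list as a red bar, dotted lines at 1 in either direction and the number of genes in parentheses. The constitutive subunits gather at 0, and the microglia markers lie between -0.22 and 0.37. The immune and thymic forms lie to the right with the thymic epithelium and thymocyte markers.

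Transcripts were compared by their percent of the gene's TPM. In all 45 members the leading transcript was the same in both libraries, and in 33 it held 80% or more of the gene in both. Both counts include members with a single annotated transcript, such as Psma2 and Psmc1, for which this was fixed in advance. In 6 members, transcripts annotated as protein-coding held under 80% in a library. These were Psma3 (36.4% and 35.3%), Psmb4 (43.9% and 42.9%), Psmd13 (53.6% and 49.5%), Psme2 (73.3% and 73.6%), Psme4 (76.1% and 70.4%) and Psmc3ip (23.3% and 32.2%). In Psmd13, a transcript at 14.4% and 16.6% and another at 1.22% and 2.46% had no match in the annotation used for types. Their type is unknown, and they were not counted as protein-coding. For Psma3 the leading transcript was Psma3-201, annotated as a target of nonsense-mediated decay, at 28.2% and 29.6%, and Psma3-203, with a retained intron, held 27.8% and 24.9%. For Psmb4 it was Psmb4-202, a transcript of 666 nucleotides with a retained intron, at 51.4% and 53.0%, against 43.9% and 42.9% for the full transcript Psmb4-201. The TPM of Psmb4 includes that short transcript, and each percent depends on how the quantification shared reads between overlapping transcripts.

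Some members had more than 1 abundant coding transcript. Psmd4, the ubiquitin receptor gene known for several splice forms, had Psmd4-202 at 51.8% and 57.9% and Psmd4-201 at 40.9% and 33.2%. Psme2 was divided between Psme2-201 at 43.6% and 37.4% and Psme2-208 at 29.8% and 35.1%. Psmb8 had transcripts with different first exons, Psmb8-203 at 67.7% and 53.6% and Psmb8-201 at 31.4% and 46.4%, although in replicate 2 these rest on 82 counts in all. Psmb5, Psmb10, Psmb11 and Psmb1 each had only 1 annotated transcript, which therefore held all of their TPM.

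**Figure D5:**
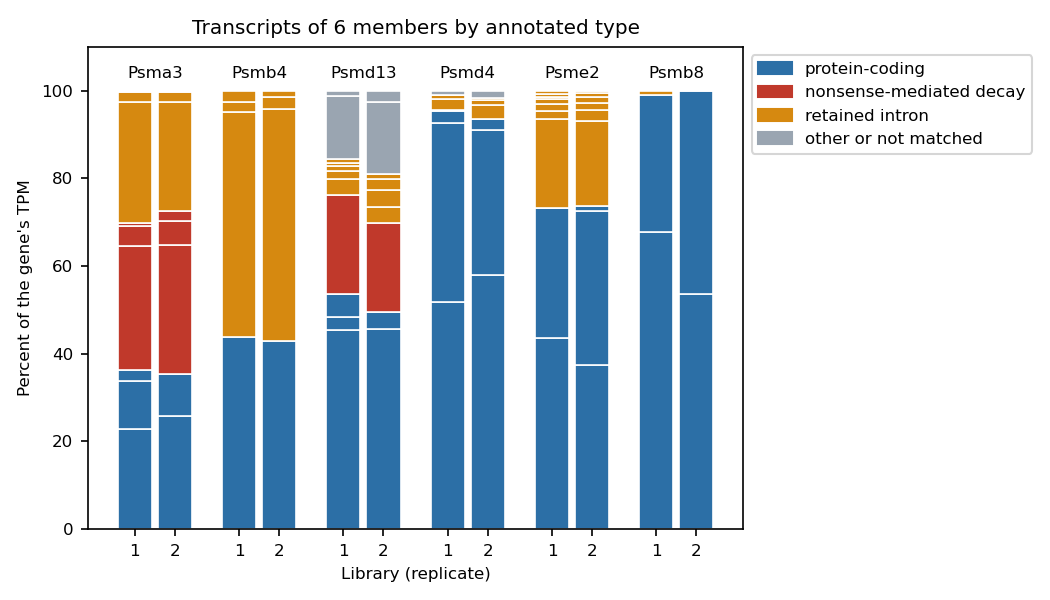
Percent of the gene's TPM in each transcript of 6 members, 1 bar per library, colored by the annotated type of the transcript, with white lines between transcripts. Bars of the same gene resemble each other in both libraries, and Psma3, Psmb4 and Psmd13 hold large parts outside the protein-coding type. For Psmd13 these parts include transcripts of unknown type.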

How the data were processed

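Total RNA longer than 200 nucleotides from 2 pools of neural tube was sequenced, with 10 ng of RNA per library and added spike-in RNA, per the labels. The authors deposited expected counts (reads shared out by a model) and TPM, per gene and per transcript, on mm10 with GENCODE M4, per the notes beside the files. They also deposited each transcript's percent within its gene. Aligner and quantifier: not given in the sources used here. Expected counts over genes came to 34678043 in replicate 1 and 41355355 in replicate 2. Spike-ins, which the deposited TPM scaling includes, were left out.

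Symbols, types and coordinates came from GENCODE M21 on GRCm38, the build also called mm10. Of the identifiers, 42462 matched once the version was removed and 884 did not. The members and lists were chosen with earlier results of these data known. All members are named. Of each list other than the cell type markers, the 2 highest, the 2 lowest and every gene apart between the libraries are named. Cell type markers are named in part, and not every marker apart between the libraries is given. Further genes named, and the promoter motifs, were chosen after values were seen. Paaf1, a listed factor, was not analysed here, and the values of 1 gene of the interferon list are not reported here. Detected means 1 TPM or more in both libraries, and apart means a log2 difference of 1 or more between TPM + 1 values. Intervals are exact conditional binomial (95%) for ratios of counts and exact Poisson for single counts, and cover counting error only. No test between conditions was possible, and the spread between the libraries is that of 2 pools. Alternatives used another pseudocount, detection threshold, filter, posterior mean TPM, and expected counts rounded to whole numbers for TMM scaling (edgeR 4.0.16) or DESeq2 1.42.0 size factors in R 4.3.3. Other steps ran in Python 3.11.15. The calls and intervals were tested on simulated counts with counting error only, which cannot show how they behave under variation between pools. Printed promoter stretches leave out annotated exons, apart from matches of at most 25 bases.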

Additional observations from a re-analysis of the deposited data

How the results depend on the processing

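Of the 45 members, 43 were detected at 0.5 TPM, 40 at 5 TPM, 42 at 1 CPM after TMM scaling, and 43 and 44 without replicate 1 and without replicate 2. The median level of the constitutive subunits was 226 TPM from posterior means in place of 229.7. Their spread fell from 0.55 to 0.40 from CPM, which leaves out the division by length. The difference between the libraries grew with a pseudocount of 0.1 TPM, to 4.40 for Psmb8, 3.85 for Psmb9 and 7.43 for Psmb11, and with DESeq2 size factors to 3.98 for Psmb9 and 9.19 for Psmb11. The first of these settings changes the added value alone. The other changes the unit and the scaling as well, and which of these moved its values was not tested. With TMM scaling, the differences were 3.71 for Psmb8, 3.25 for Psmb9, 1.06 for Psmb10 and 5.80 for Psmb11. The direction of the difference for Psmb8, Psmb9, Psmb10 and Psmb11 was the same under each of these settings, and the members apart were 5 with a pseudocount of 0.1 TPM or DESeq2 size factors and 4 with TMM. Protein-coding genes higher in replicate 1 by 1 or more then made up 8.82%, 11.0% and 4.40%. Of values recomputed from posterior mean TPM, 18 moved by more than the spread between the libraries and 28 did not. No paired analysis was possible because the libraries form 1 group. In replicate 2, depth limits Psmb11, and the SD of the immune forms rests on 2 libraries that differ in thymic RNA.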

Other observations

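Processed pseudogenes named after members carried hardly any reads. Psmb5-ps stood at 0 and 0.05 TPM, Psmb6-ps at 0 and 0.06, Psmb6-ps2 at 0.07 and 0.25 and Psmb7-ps2 at 0.13 and 0.33 TPM, against levels above 200 TPM for Psmb5, Psmb6 and Psmb7. Of the associated factors, Akirin2, which carries proteasomes into the nucleus, and Zfand5, which raises their activity, stood at 61.1 and 74.2 TPM and 99.1 and 114 TPM, with differences of -0.28 and -0.20.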
